A study of Mus musculus with 9 samples.

Results

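The control precipitation of a mouse testis experiment on N4-acetylcytidine (ac4C) was examined against the RNA it started from. Of the 9 libraries of the series, 6 belong to this comparison, namely the 3 libraries labelled IgG and the 3 labelled input. All were wild-type (WT) male testis, without a mutation or treatment, and no age is given for them. Input is the poly(A) RNA before precipitation, and IgG is the part of the same kind of RNA that stayed on protein A beads carrying a rabbit isotype antibody with no stated RNA target. The remaining 3 libraries were made with the anti-ac4C antibody (acRIP) and entered the fit, where they took part in the filter on low counts and in the estimate of spread. Genes across the whole table were the members, 55401 in all, of which 35095 had a count in at least 1 of the 6 libraries and 22510 passed the filter on low counts and were tested (21555 with the 6 libraries alone).

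N4-acetylcytidine is made by the acetyltransferase NAT10, in ribosomal and transfer RNA and by the study's account in messenger RNA as well. In an immunoprecipitation of modified RNA, the isotype control measures what is carried along without the modification being recognised, by beads, antibody protein or tube walls. The testis is a demanding tissue for such a control, since spermatids hold a small number of very abundant transcripts, such as the protamine mRNAs that package the sperm genome, beside a very broad transcription of weakly expressed genes and noncoding RNAs. Both kinds of library were made by Smart-seq2, in which an oligo(dT) primer starts the cDNA on a poly(A) tail or on a stretch of A inside a transcript.

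Total counts ranged from 22023925 to 31340090 in input and from 14647542 to 18786779 in IgG. Genes with at least 1 count numbered 28552 to 29642 in input and 26204 to 26874 in IgG, and after all libraries were thinned to the lowest total the ranges were 28021 to 28497 and 26204 to 26725. The groups did not overlap (exact permutation test, two-sided, p = 0.1, the smallest that 3 against 3 allows). The 100 most abundant genes of each library took 17.2% to 17.5% of counts in input and 20.7% to 21.1% in IgG (exact permutation p = 0.1). Markers of the tissue were present on both sides, among them the germ cell helicase Ddx4 with 17840 to 24430 counts in input and 7154 to 9907 in IgG, and the Leydig enzyme Cyp17a1 with 9156 to 13297 and 5201 to 6693, whereas the liver gene Alb had at most 6 counts in any of the 6 libraries. The spread between libraries of a group was small, with a biological coefficient of variation of 8.69% in input and 11.7% in IgG. The sources do not say whether the 3 libraries were separate precipitations, so the p-values measure only the spread between these samples, which may be technical.

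Control IgG did not return a uniformly thinned copy of the input. Of the 22510 genes tested, 3028 (13.5%) were higher and 1626 (7.22%) were lower in IgG, where a call required more than a 2-fold change and an adjusted p below 0.05 (edgeR quasi-likelihood test with Benjamini-Hochberg adjustment). The 3 IgG and 3 input libraries did not overlap in 2907 of the higher and 1548 of the lower genes. A call itself favours groups that do not overlap, so these counts are no separate evidence. Genes that were not called, such as mt-Co1 and Rplp0, could lack overlap too, and the share over all tested genes is not given here. The median log2 fold change of all genes was -0.01, with quartiles at -0.47 and 0.56. Gains were larger than losses wherever counts were ample. Among the 12829 genes with a mean of at least 100 counts, 1326 (10.3%) were higher and 429 (3.34%) lower, and the numbers beyond a 4-fold change were 323 and 16. Beyond 8-fold, 51 of these genes were higher and 1 was lower. In the lowest quintile of genes by mean level, 18.1% were higher and 14.2% lower, and in the highest quintile 7.71% and 2.35%. For library making the input was brought to a defined concentration, while the IgG RNA was too scarce to quantify. Carry-over during precipitation and library making from little RNA therefore cannot be told apart in any difference given here, and relative abundance is all that was measured.

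**Figure D1:**
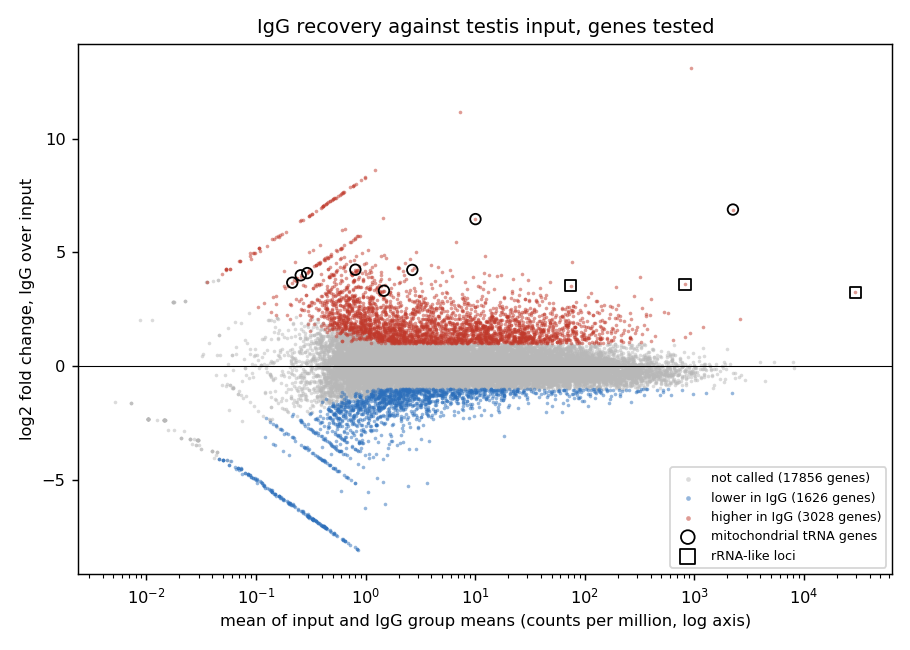
Log2 fold change of IgG over input for each tested gene against its mean level in CPM (log axis), with called genes coloured by direction, mitochondrial tRNA genes circled, rRNA-like loci in squares and genes at or near 0 counts in a group along the straight bands at low level, where the fitted value is no bound. At high level the 3028 genes called higher reach further from 0 than the 1626 called lower.

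Structural RNAs, most of which have no regular poly(A) tail, led the gains of IgG in share of counts. Loci with ribosomal RNA or sequence like it held 0.627%, 0.589% and 0.555% of counts in the input libraries and 5.30%, 5.56% and 5.74% in the IgG libraries, which is a mean of 0.590% ± 0.0362 (SD, n = 3) against 5.53% ± 0.218, a ratio of 9.38 (exact permutation p = 0.1). Every IgG library lay far above every input library. Of the 5 loci listed, 3 passed the filter and all were higher. CT010467.1, a locus annotated as rRNA at chr17:39846353-39848201 (GRCm38), had 6008, 5602 and 5255 CPM (counts scaled to the same normalized total in each library) in input and 51180, 53650 and 55660 CPM in IgG, a log2 fold change of 3.25 ± 0.0383 (SE; adjusted p = 1.11e-34). Lars2, which encodes the mitochondrial leucyl-tRNA synthetase and was listed here because its locus carries a stretch like ribosomal RNA, had 126, 126 and 128 CPM in input and 1459, 1566 and 1553 in IgG, a log2 fold change of 3.59 ± 0.0370. Gm15564, the remaining locus, rose by 3.54 on the log2 scale. With the ribosomal RNA-like loci left out, protein-coding genes held 91.9% of counts in input and 91.1% in IgG, and with them in, 91.3% ± 0.103 and 86.1% ± 0.294.

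The mitochondrial genome divided by RNA type. Its ribosomal RNAs rose, mt-Rnr2 (16S) from 1014, 995 and 1016 CPM to 4050, 4156 and 4399, and mt-Rnr1 (12S) by 2.18 on the log2 scale. Of the 22 mitochondrial transfer RNA genes, 8 passed the filter and all 8 were higher. The transfer RNA of glutamine, mt-Tq, had 46.6, 38.3 and 27.2 CPM in input and 4434, 4340 and 4635 in IgG, a log2 fold change of 6.89 ± 0.112 (adjusted p = 5.98e-31), which was nearly all of the rise of the class from 0.00393% to 0.452% of counts. That of cysteine, mt-Tc, had 0.250, 0.266 and 0.132 against 19.7, 21.6 and 18.5. The other 6 lay between 3.31 (mt-Tp) and 4.24 (mt-Te) on few counts, and a gene this low in input passed the filter only through the group where it was high. mt-Tq lies on the opposite strand to its neighbours at chrM:3772-3842 and the use of strand in the counting is not stated, so reads from the other strand cannot be separated. Of the 13 mitochondrial messenger RNA genes, 10 were tested and 2 were higher, mt-Nd2 at 155, 159 and 170 against 342, 367 and 381 CPM and mt-Nd6, encoded on the other strand, at a log2 fold change of 1.16. The abundant mt-Co1, a core subunit of cytochrome c oxidase, had 3299, 3533 and 3813 against 2166, 2305 and 2433, which did not reach a fold change of 2. As a share of counts the messenger RNAs of the organelle went from 0.613% ± 0.0425 to 0.532% ± 0.0294.

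**Figure D2:**
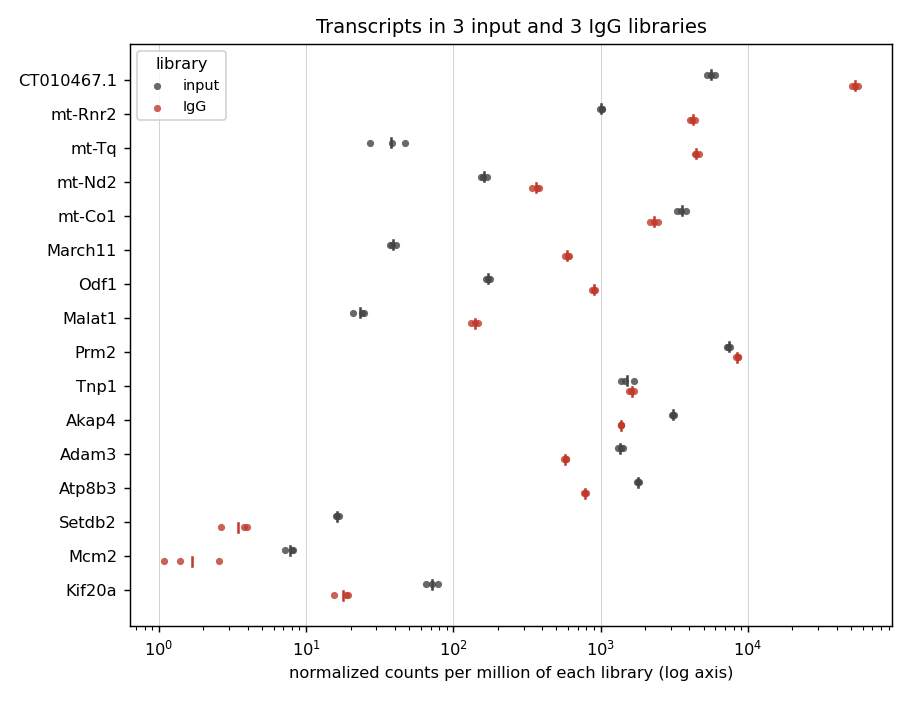
Normalized CPM (log axis) of 16 transcripts in each of the 3 input and 3 IgG libraries, with a bar at each group's mean. The 2 groups are far apart for CT010467.1, mt-Tq, March11, Odf1 and Malat1, close together for Prm2 and Tnp1, and apart in the other direction for Akap4, Adam3, Setdb2, Mcm2 and Kif20a.

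Small nuclear and nucleolar RNAs were mostly unmeasured in both kinds of library, and of those measured far more were higher than lower in IgG, mostly on few counts. Of 2941 such genes 54 passed the filter, 23 (42.6%) were higher and 1 (1.85%) was lower, beside 13.5% and 7.22% of all genes. Their median log2 fold change relative to that of all genes, 0.94, was 0.36 without IgG replicate 2, 1.54 without input replicate 3 and 0.15 without a filter on low counts. Snord13, the U13 snoRNA that guides NAT10 to 18S ribosomal RNA, had 26, 23.6 and 16.9 CPM in input and 120, 110 and 123 in IgG, a log2 fold change of 2.39 ± 0.0970 (adjusted p = 3.23e-20). Snord118, the U8 snoRNA needed for large subunit ribosomal RNA processing, rose from a mean of 4.18 to 39.2. The snRNA gene Gm25327 had no count in any input library and 30, 66 and 34 counts in IgG, at least 20.6-fold higher against a floor of 3 counts in each input library and 10.3-fold against 6 counts, the floor if both mates of a pair were counted. The miRNA, rRNA, misc_RNA and similar biotypes gave 21 higher (50%) and 3 lower (7.14%) of 42 tested out of 3143. Among the higher were n-R5-8s1 (5.8S ribosomal RNA) at a log2 fold change of 2.12 and Mir6236 at 3.6. Their combined share, 0.581% in input and 5.38% in IgG, was nearly all CT010467.1. Their median log2 fold change relative to that of all genes, 1.455, was 0.115 without a filter on low counts. Only 1 of 17 spliced host genes of snoRNAs was higher, Snhg14 at 1.07 ± 0.253, a call lost under upper quartile scaling, without IgG replicate 3 and without input replicate 1. Gas5, the most abundant of the hosts, had a log2 fold change of 0.43.

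Histone mRNAs, most of which end in a stem-loop and carry no poly(A) tail when made in S phase, gave calls in both directions. Of 70 clustered histone genes 25 were tested, 2 (8%) were higher and 2 (8%) lower, beside 13.5% and 7.22% of all genes. The median log2 fold change was -0.18. All 4 calls rested on few counts. Hist2h4 was counted in 1 IgG library alone and lost its call without it, Hist1h2be had a mean of 0.289 CPM in input and 0.921 in IgG, Hist1h4h went from 2.00 to 0.958, and the testis variant Hist1h2ba from 2.09 to 1.01 with a call that was lost when any input library was left out. The most abundant of them, Hist1h2bp, had 83.1, 76.1 and 65.4 against 64.7, 59.7 and 62.4, so that the groups did not overlap but differed by less than 2-fold. Among 21 replacement and spermatid histone genes tested, the linker histone gene H1fx rose from 1.6, 1.77 and 0.964 to 16, 13.6 and 16.8 and H1f0 by 1.28 on the log2 scale, while the spermatid linker histone Hils1 had a log2 fold change of -0.06.

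By annotated class, of 28 miRNA genes tested 60.7% were higher and 7.14% lower. Only these 28 of 2202 miRNA genes passed the filter. Without a filter on low counts 7.87% of miRNA genes were higher, below the 9.61% of all genes in that setting. Of 714 tested TEC loci, unconfirmed single-exon models awaiting experimental support, 40.1% were higher and 7.0% lower, and of 106 sense intronic RNAs 36.8% and 5.66%. Only 714 of 3214 TEC loci and 106 of 327 sense intronic RNAs passed the filter, and most were weakly expressed. Among those with at least 100 counts the shares were 16% and 3.70% of 81 TEC loci, and none higher with 5.56% lower of 18 sense intronic RNAs, so the second of these gains was seen at low counts alone. Long intergenic noncoding RNAs (lincRNA) went the other way, with 7.6% higher and 10.3% lower of 2040 tested and a median log2 fold change of -0.17, and 3.20% and 5.43% of 718 with at least 100 counts. Unprocessed pseudogenes, copies made by gene duplication, had 7.41% higher and 14.4% lower of 243 tested. Protein-coding genes, at 13.1% and 6.24% of 15522, lay close to the shares of all genes. Single-exon genes of other biotypes were higher in 20.8% of 2906 and lower in 8.60%, against 9.50% and 9.92% of 4042 with several exons.

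**Figure D3:**
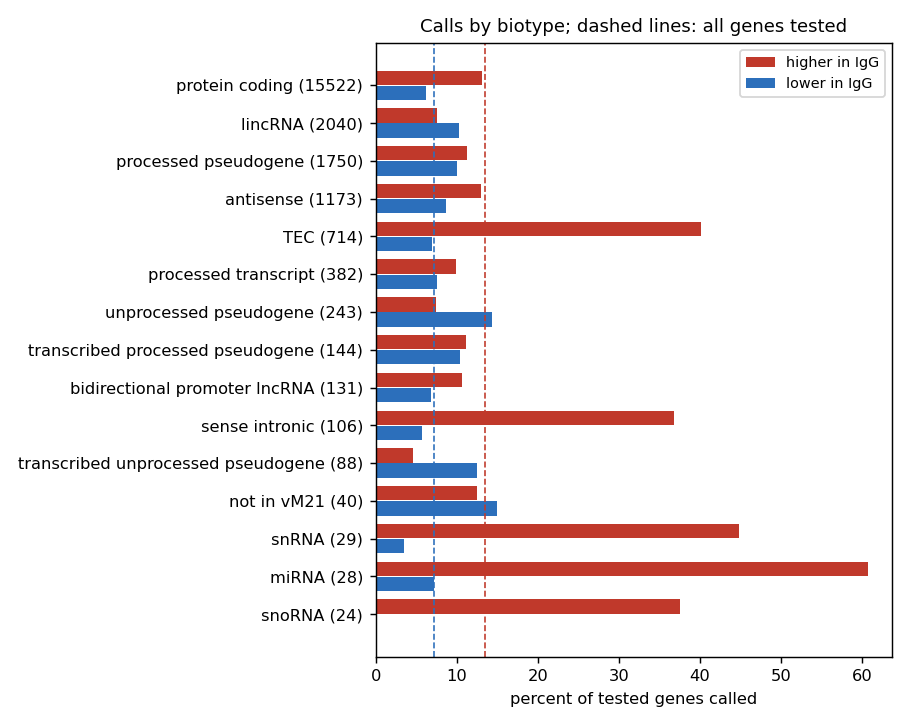
Percentage of tested genes called higher and lower in IgG for each of the larger annotated biotypes (number tested in brackets), with dashed lines at the shares of all genes, 13.5% and 7.22%. The miRNA, snRNA, snoRNA, TEC and sense intronic genes exceed the line for higher genes, and unprocessed pseudogenes and lincRNAs are among those that exceed that for lower genes. Without a filter on low counts, 7.87% of miRNA and 6.42% of snRNA genes were higher, below the 9.61% of all genes.

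The largest single change was in a noncoding RNA. AC121802.1, a spliced lincRNA of chromosome 18, had 0.13, 0.35 and 0.18 CPM in input and 1539, 1799 and 2319 in IgG, a log2 fold change of 13.11 ± 0.167 (adjusted p = 6.34e-34), and its mean in acRIP was 11.3. It was thus close to absent before precipitation and among the 5 genes that gained the most in share, 0.189% of IgG counts. Olfr647-ps1, an olfactory receptor pseudogene at chr7:104167383-104168342, had no count in input and 236, 284 and 227 counts in IgG, at least 121-fold higher against 3 counts in each input library and at least 60.4-fold if both mates of a pair were counted and the floor is 6. Its acRIP counts were 1503, 1149 and 835. The processed pseudogene Gm3219 rose by 4.84 on the log2 scale. Complete absence from a group was otherwise a matter of low counts. Of the genes with a mean of at least 10 counts, 92 of 20905 were at 0 in all input libraries and 255 of 21708 at 0 in all IgG libraries (81 and 80 after thinning to equal totals), and with a mean of at least 50 counts 1 and none. After Olfr647-ps1 and Gm25327, the TEC locus Gm37702 had the most counts of those at 0 in input, with 32, 38 and 32. Those at 0 in IgG with the most input counts were the zinc finger gene Zfp790, with 59, 40 and 34 counts in input and at least 9.74-fold lower against 3 counts (4.87-fold against 6), the pseudogene Gm4912 and the X-linked Spin2c, a spindlin family gene.

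Among protein-coding genes the 8 largest gains, taken over genes with a mean of at least 100 counts and no overlap, were Akap5, Gm11032, Rbmxl2, Trir, Ring1, Ypel3, Sap30 and March11. March11, a membrane-bound ubiquitin ligase, was by far the most abundant of these, at 37.1, 38.5 and 40.9 CPM in input and 572, 602 and 608 in IgG, a log2 fold change of 3.94 ± 0.0475 (adjusted p = 1.53e-34). The libraries of each group lay within a narrow band and the bands were far apart. Akap5, an anchor of protein kinase A, had 0.250, 0.177 and 0.482 against 10.3, 9.96 and 19.4, with IgG replicate 3 above the other IgG libraries. Ring1, an E3 ligase of Polycomb repressive complexes, had 1.81, 1.42 and 1.31 against 25.1, 25.3 and 24.6, and Sap30, a subunit of the Sin3 deacetylase complex, 1.88, 2.04 and 1.75 against 29.0, 33.6 and 27.2. The germ cell RNA-binding protein gene Rbmxl2, a gene without introns, rose by 4.10, Trir by 4.03 and Ypel3 by 4.0 on the log2 scale.

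The 8 largest losses were smaller, between 3.8-fold and 5.1-fold, and fell on genes of modest level. Setdb2, of a histone methyltransferase family, had 15.9, 16.2 and 16.6 CPM in input and 2.65, 3.98 and 3.76 in IgG, a log2 fold change of -2.21 ± 0.212 (adjusted p = 1.10e-10). Mcm2, a subunit of the replicative helicase, had 8.13, 8.06 and 7.19 against 1.09, 2.54 and 1.4. Kif20a, a kinesin of cytokinesis, was the most abundant of the 8, at 65.1, 78.0 and 71.3 against 15.4, 19.3 and 18.6 (log2 fold change -2.0 ± 0.104). Like the gains, these 8 were taken over genes with a mean of at least 100 counts and no overlap. That all input libraries lay above all IgG libraries was therefore a condition of the choice. The others were CN725425 (-2.34), the collagen receptor subunit Itga2 (-2.16), the phosphoinositide phosphatase Sacm1l (-2.04), Cox15, needed to make heme A for cytochrome c oxidase (-1.97), and Ankrd16 (-1.94). Among other biotypes AC134576.3, a processed pseudogene of chromosome 18, had the lowest value, -3.07 ± 0.379, but input replicate 2 stood apart from its group, with 46.1, 6.24 and 46.5 CPM in input and 3.46, 3.76 and 4.52 in IgG.

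Long stretches of A inside a transcript went with gains. The longest run of A in the longest transcript of each gene, as GENCODE vM21 gives it, most often had 5 or 6 bases (44.1% of genes), and among these 9910 genes 10.3% were higher and 8.28% lower. The share higher was 12% at 1 to 4 bases, 14.2% at 7 to 8 bases, 18.9% at 9 to 11, 22.5% at 12 to 14, 24.0% at 15 to 19 and 27.1% of 373 genes at 20 or more, where 2.41% were lower. Length moved with it, since longer transcripts hold longer runs, and the share higher also went from 10.3% in the shortest quintile of genes to 17.0% in the longest. Within each length tertile of protein-coding genes with at least 100 counts, a run of 9 or more A still went with a higher share, 11.2% against 5.33% in the shortest tertile, 14.7% against 9.63% in the middle and 19.3% against 12.6% in the longest. Among 110 noncoding genes with at least 100 counts and a run of 12 or more, 20.9% were higher and 1.82% lower, and among 2056 with shorter runs 5.16% and 5.54%. These are descriptions across genes of the same 6 libraries, without a test, and the rank correlation of run length with log2 fold change over all 22470 genes with a sequence was weak (Spearman rho = 0.0837).

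The sequences around the longest run are shown for 3 groups of noncoding transcripts, chosen after their values were seen. Each is 30 bases of exon, 5′ to 3′ on the transcribed strand, read from GENCODE vM21 transcripts and checked on the GRCm38 genome, with the longest run of A in capitals.
Bc1, chr7:144914543-144914572, plus strand: tggAAAAAAAAAAAAAAAAAAAAAAAgaca
1700018L02Rik, chr19:29047307-29047336, plus strand: gtgtagggAAAAAAAAAAAAAAgaagctag
Gm7993, chr5:95975098-95975127, plus strand: ccAAAAAAAAAAAAAAAAAAAAAAAAAcgt
Malat1, chr19:5795979-5796008, minus strand: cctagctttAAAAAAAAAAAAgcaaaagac
4933433G08Rik, chr9:61104059-61104088, minus strand: tgaaaagggactAAAAAgttcagaaaggta
Gm2981, chr9:75061387-75061416, minus strand: cctctcttctccAAAAAtgtgcattctaca
Mrip-ps, chr7:15289159-15289188, minus strand: tcggcggccaaggAAAAcccgtgcaggaaa
4930572G02Rik, chr14:48560533-48560562, plus strand: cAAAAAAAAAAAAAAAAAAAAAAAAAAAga

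The first 4 were chosen among noncoding genes with a run of at least 12 A that fits in the window. Of these, with no overlap between groups and a mean of at least 100 counts, they had the largest gains. The next 3 were chosen without regard to run length, so the difference in runs between these groups was set by the choice. Without the requirement on runs, the 5 largest gains at a mean of at least 100 counts fell on other noncoding genes. These were AC121802.1, Olfr647-ps1, mt-Tq, mt-Tc and Gm3219, with longest runs of 9, 3, 2, 3 and 3 bases. Bc1, a short neuronal RNA made by RNA polymerase III with an internal A-rich stretch of 23 bases, rose from a mean of 0.737 to 10.1 CPM (log2 fold change 3.73 ± 0.270), the antisense RNA 1700018L02Rik from 6.53 to 70.9 and the pseudogene Gm7993 from 19.3 to 118. Malat1, an abundant nuclear RNA whose 3′ end is a stabilising triple helix in place of a poly(A) tail, had 24.8, 23.9 and 20.9 in input and 132, 140 and 147 in IgG, a log2 fold change of 2.59 ± 0.0652. Its run of 12 lies 298 bases from the 3′ end of a transcript of 6983 bases. The next 3, 4933433G08Rik, Gm2981 and Mrip-ps, fell by 2.30, 2.27 and 2.17 on the log2 scale, and their longest runs had 5, 5 and 4 bases. A long run did not always go with a gain. 4930572G02Rik has 27 consecutive A and was lower in IgG, 15 against 7.33 CPM. Of the other nuclear or imprinted long noncoding RNAs, Kcnq1ot1 (1.33), Miat (1.28) and Ftx (1.25) were higher, Firre was lower (-1.14), and Neat1 (-0.11) and Tug1 (-0.68) did not reach a 2-fold change. With Malat1 they made 4 higher (33.3%) and 1 lower (8.33%) of 12 tested (19 listed), beside 13.5% and 7.22% of all genes. The median of the list relative to all genes was 0.41. It was 0.79 without input replicate 3 and between 0.32 and 0.72 without any other library.

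GC content set apart the top of its range. Among protein-coding genes 19.6% of the quintile with the highest GC (at least 55.3%) were higher in IgG and 4.44% lower, and the other 4 quintiles lay between 11.1% and 12% higher. In that quintile, genes with a run of 9 or more A were higher in 30.8% of 321 cases and the rest in 18.3% of 2784. In the quintile with the lowest GC the same shares were 18.2% of 1086 and 8.72% of 2019, and in the middle 3 quintiles 18.6% of 2200 and 9.07% of 7112. Both features thus went with gains when the other was held in a band. The rank correlation of GC with log2 fold change over protein-coding genes was again weak (Spearman rho = 0.123, n = 15522).

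**Figure D4:**
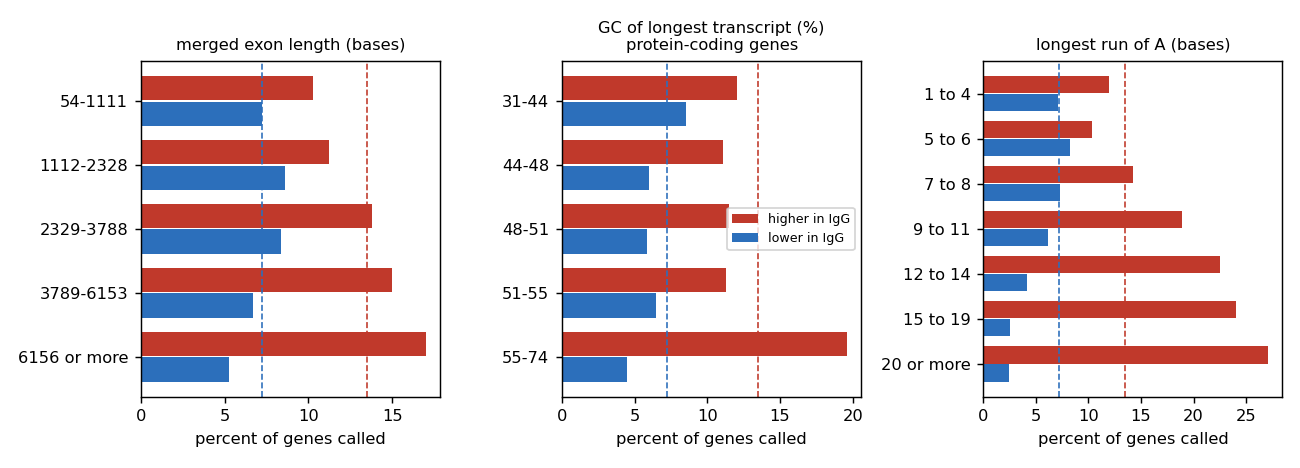
Percentage of genes called higher and lower in IgG by merged exon length, by GC of the longest transcript (protein-coding genes) and by the longest run of A in the transcript. The share higher climbs with run length from 10.3% at 5 to 6 bases to 27.1% at 20 or more, and is highest in the quintile of highest GC, at 19.6%.

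By chromosome, the autosomes were alike, with 11.6% to 15.8% of tested genes higher and 5.37% to 8.77% lower. The X chromosome, silenced in meiosis and partly active again in spermatids, had 9.65% higher and 12.6% lower of 860 genes, with a median log2 fold change of -0.21. With at least 100 counts the same held, at 5.74% and 7.42% of 418 X-linked genes against 10.5% and 3.20% of 12376 autosomal genes, a description without a test. On the Y chromosome 4.27% were higher and 6.84% lower of 117 genes. The most abundant X-linked loser, Akap4, is described with the sperm tail genes.

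Protamine and transition protein messages of spermatids differed little between IgG and input. This did not hold for every abundant message, since Akap4 and Atp8b3, given below, were lower by more than 2-fold. None of the 5 protamine and transition protein genes, whose products replace histones on sperm DNA, was called by edgeR or DESeq2, although all 5 were above input at an unadjusted p under 0.05, and their share of counts was 1.83% ± 0.114 in input and 2.05% ± 0.0368 in IgG. Prm2 had 7581, 7333 and 7236 CPM in input and 8530, 8319 and 8573 in IgG, a log2 fold change of 0.20 ± 0.0233, and Tnp1 had 1680, 1471 and 1369 against 1608, 1559 and 1691, with overlapping groups. The difference in Prm2 was larger than the spread between libraries but far from 2-fold. Ldhc, the lactate dehydrogenase of sperm and the most abundant gene of the tail list, had a log2 fold change of -0.07.

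Genes of sperm structure moved in both directions. Of 17 sperm tail genes 3 (17.6%) were higher and 3 (17.6%) lower, beside 13.5% and 7.22% of all genes. Odf1, a main protein of the outer dense fibres, had 173, 166 and 177 CPM in input and 874, 914 and 893 in IgG, a log2 fold change of 2.38 ± 0.0366 (adjusted p = 1.29e-31). Gapdhs, the glycolytic enzyme bound to the fibrous sheath, rose from a mean of 101 to 432 and the sheath protein gene Fsip2 from 93.1 to 252. In the opposite direction Akap4, the main protein of the fibrous sheath, had 3036, 3079 and 3166 against 1365, 1371 and 1370, a log2 fold change of -1.18 ± 0.0291, and lost more of the share of counts than any other called gene, from 0.317% to 0.137%. Fscb (-1.02) and Spata18 (-1.02) were lower as well. Genes whose proteins sit in the same structure, such as Akap4 and Fsip2, thus stood on opposite sides. The axoneme list had 2 higher (3.23%) and 3 lower (4.84%) of 62 tested, both below the shares of all genes. Its median input level, 91.2 CPM, lay in the quintile of all genes with the highest input level. In that quintile 3.62% were higher and 2.67% lower. The higher axoneme genes were Cfap54 at 1.11 and Dnah10 at 1.0, and the lower Cfap69 at -1.25, Rsph3b at -1.12 and Cfap206 at -1.07. After Akap4 the largest losses of share were in Atp8b3, a lipid flippase of the sperm head (0.183% to 0.0786%), Adam3, a sperm surface protein needed for passage to the oviduct (1303, 1364 and 1411 against 562, 579 and 577), Cfap206 and the monocarboxylate transporter Slc16a7 (-1.27).

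Acrosome, meiotic and piRNA genes had medians below that of all genes by less than 2-fold. Shares lower were 10%, 6.25% and 0%, and shares higher 0%, 0% and 5%. Over all genes they were 7.22% and 13.5%. Median input levels of the acrosome and piRNA lists, 245 and 82.0 CPM, lay in the quintile of all genes with the highest input level. That quintile itself had a median log2 fold change of -0.17. In the acrosome and fusion list of 20 genes the median log2 fold change was -0.44, 2 genes were lower, the hyaluronidase Hyal5 (-1.14 ± 0.0663) and Dpy19l2, needed to attach the acrosome to the nucleus (-1.07 ± 0.0472), and none was higher by edgeR or DESeq2. At an unadjusted p under 0.05 and any size of change, 17 of the 20 were below input and 1 above. Zpbp and Zpbp2, a pair of related zona pellucida binding proteins, differed in sign without a call, at 0.95 and -0.75. The share of counts of the list was 0.542% ± 0.00534 in input and 0.388% ± 0.00492 in IgG (exact permutation p = 0.1). For the piRNA pathway it was 0.520% ± 0.00545 and 0.364% ± 0.00234, with a median log2 fold change of -0.29. Its 1 called gene, Mybl1, the transcription factor of pachytene piRNA clusters, rose by 1.20, whereas Mael had 2316, 2307 and 2286 CPM against 1392, 1385 and 1435 and was not called at a log2 fold change of -0.71. Of 32 meiotic genes Prdm9, which places recombination hotspots, fell by 1.98 on the log2 scale and Mei4 had no count in IgG, with 24, 26 and 52 counts in input. The median of the list was -0.22.

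Of 73 translation factor genes 13 (17.8%) were higher and 1 (1.37%) lower, beside 13.5% and 7.22% of all genes. Eif3b, a core subunit of initiation factor eIF3, had 42.4, 38.6 and 39.5 CPM in input and 268, 257 and 249 in IgG, a log2 fold change of 2.68 ± 0.0531 (adjusted p = 9.90e-29). The eIF3 subunits Eif3j1 (2.32), Eif3j2 (2.0) and Eif3f (1.54), the scaffolds Eif4g3 (1.27) and Eif4g1 (1.25) and Eif5b (1.45) were higher too, and Eif2d was lower (-1.07). The list median of 0.22 lay little above 0, since most members were not called, and the abundant elongation factor Eef1a1 had a log2 fold change of -0.13. All 85 cytosolic ribosomal protein genes were tested, 6 (7.06%) were higher and none lower by edgeR or DESeq2 (50 above and 6 below input at an unadjusted p under 0.05), with a median of 0.36 and a share of counts of 0.670% ± 0.0423 against 0.845% ± 0.0242. Those 6 were Rps10, Rps2, Rpsa, Rpl14, Rpl13a and Rplp2, between 1.01 and 2.07, while Rplp0, the most abundant, had -0.39. Ribosomal protein genes have many near-identical pseudogenes, and only uniquely mapped reads were counted, so their levels are uncertain. The mitochondrial ribosomal proteins had no call in either direction by edgeR or DESeq2 among 79 tested, with a median of 0.07, and at an unadjusted p under 0.05 28 were above and 18 below input. The nuclear genes of oxidative phosphorylation had 1 each way of 92, both on few counts, Atp5l-ps1 and Cox6a2.

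Of 29 SR and hnRNP genes tested, which encode splicing regulators, 9 (31.0%) were higher and 1 was lower, although the median was 0.06. At an unadjusted p under 0.05 and any size of change, 14 were above and 9 below input. Hnrnpa0, a gene without introns, had 4.38, 2.92 and 3.51 CPM in input and 17.2, 12.6 and 16.9 in IgG. Hnrnpab (2.01), Hnrnpll (1.71), Hnrnpul1 (1.65) and Srsf2 (1.61) were among the others, Srsf4 fell by 1.48, and Hnrnpa2b1, the most abundant, was at 0.00. Of the heat shock genes called higher, the germ cell chaperone Hspa1l had 26.4, 29.4 and 26.6 against 152, 145 and 162, Hsp90aa1 a mean of 488 against 1327 and Hsp90ab1 of 215 against 444. With Hspa1a (1.5) and the immediate early gene Egr1 (1.38) they made 5 (29.4%) higher and none lower of 17 by edgeR and DESeq2, with a list median of 0.15 (6 above and 2 below at an unadjusted p under 0.05), whereas Hspa2, the most abundant of them, was at 0.00. Of 33 genes with giant coding sequences 5 (15.2%) were higher, Fsip2, Birc6, Vps13a, Vps13c and Dnah10, and none was lower by edgeR or DESeq2, where 13.5% of all genes and 17.0% of the longest length quintile were higher. At an unadjusted p under 0.05, 23 were above and 2 below input, and the list median was 0.61, although Ttn, which has the longest of these coding sequences, was at 0.15.

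**Figure D5:**
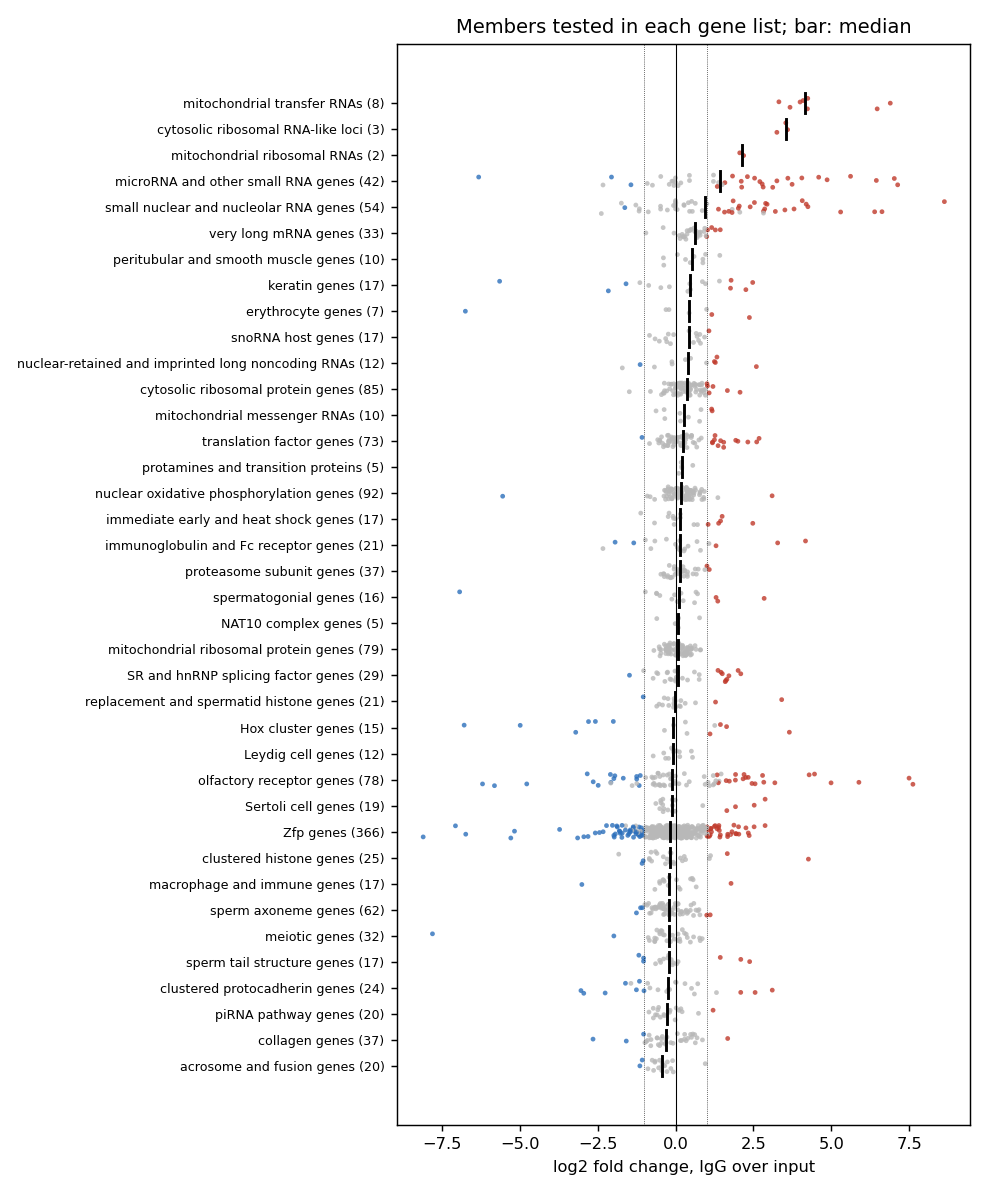
Log2 fold change of IgG over input for the tested members of each gene list (1 point per gene, number tested in brackets, bar at the median, dotted lines at 1 and -1). Mitochondrial transfer RNAs (median 4.16) and ribosomal RNA-like loci (3.54) lie far to the right, protamines and transition proteins close to 0, and acrosome genes to the left (-0.44).

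Most of the somatic and early germ cell genes tested were not called. Of 19 Sertoli genes 4 (21.1%, beside 13.5% of all genes) were higher and none lower by edgeR or DESeq2, but 14 of the 19 had values below 0 (5 above and 8 below at an unadjusted p under 0.05). The higher genes included Aard from 8.98, 9.38 and 7.54 CPM to 70.9, 54.7 and 65.0, the transcription factor gene Gata4 from a mean of 1.48 to 8.60 and the inhibin subunit Inhbb from 3.19 to 12.3. The abundant Sertoli product Clu was at -0.24 and the list median at -0.10. Of 16 spermatogonial genes tested 3 (18.8%) were higher and 1 (6.25%) was lower, beside 13.5% and 7.22% of all genes. Id4, a regulator in spermatogonial stem cells, had 7.32, 8.28 and 7.28 against 46.5, 59.0 and 57.9 (log2 fold change 2.84 ± 0.106), and Dmrt1 (1.35) and Ccnd2 (1.3) rose as well, while Cdh1 had no count in IgG, at least 4.21-fold lower against 3 counts and 2.11-fold against the floor of 6. No Leydig gene of 12 and no peritubular gene of 10 was called by edgeR or DESeq2, with 3 above and 4 below input for the first and 6 above and 1 below for the second at an unadjusted p under 0.05, and the medians were -0.07 and 0.53. Most members of these lists were not called, and differences in cell makeup between the libraries were not tested, since all come from whole testis RNA. In bulk RNA, fewer cells of a type and less RNA per cell cannot be told apart.

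Gene families of low expression gave calls in both directions on few counts. Olfactory receptor genes had 21 higher (26.9%) and 15 lower (19.2%) of 78 tested (1107 listed), and Hox genes 4 (26.7%) and 6 (40%) of 15. Clustered protocadherins had 3 (12.5%) and 7 (29.2%) of 24, and keratins, which are common handling contaminants, 4 (23.5%) and 3 (17.6%) of 17. Immunoglobulin and Fc receptor genes had 3 (14.3%) and 2 (9.52%) of 21 tested out of 402. The shares were 13.5% and 7.22% of all genes, and 18.1% and 14.2% of the lowest quintile by mean level. Zinc finger genes named Zfp, at 31 higher (8.47%) and 46 lower (12.6%) of 366, had a median of -0.17. Many of these passed the filter through the group where they were higher. The blood genes Hba-a1 (1.16) and Hba-a2 (2.37) were higher, whereas Hbb-bs was at 0.44. Of 37 collagen genes Col27a1 was higher (1.67) and Col5a1, Col5a2 and Col11a1 were lower. Among 17 macrophage and leukocyte markers C1qc was higher (1.78), and among 37 proteasome genes Psmb8 (1.08) and Psmd3 (1.01).

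The transcripts that the study uses as testis targets or references covered the range of control recovery. Enho, which encodes the secreted peptide adropin, had 0.375, 0.266 and 0.175 CPM in input and 1.90, 1.17 and 1.4 in IgG, a log2 fold change of 2.36 ± 0.365 (adjusted p = 1.85e-06), and the homeobox gene Hoxd9 had 0.375, 0.708 and 0.351 against 1.97, 1.38 and 1.13 (1.64 ± 0.399). Both were thus higher in the control precipitation itself than in input, on few counts. The Hoxd9 call was lost in the test against a fold change of 2, and both calls were lost with limma. The study defined its targets by enrichment over IgG as well as over input, and examined both genes by acRIP-qPCR. Hoxb7 had no count in IgG and at most 8 in input, and was called lower. That call was lost in the test against a fold change of 2, without input replicate 3 and with limma. The ubiquitin ligase gene Rnf183, at 0.13 ± 0.755, was too low for a difference to be detectable at this depth. The reference genes Eef1a1 and Gapdh were at -0.13 and 0.17, the second on few uniquely mapped counts. Nat10 had 25.7, 25.9 and 23.4 against 21.8, 25.9 and 26.6, with overlapping groups and a log2 fold change of -0.01 ± 0.10. None of the 5 genes of the acetylation complex was called by edgeR or DESeq2 (1 above and 1 below at an unadjusted p under 0.05), with Pcbp1 at 0.77, Pcbp2 at 0.10, Tardbp at 0.09 and Thumpd1 at -0.60.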

How the data were processed

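Poly(A) RNA of wild-type testis was sequenced in 9 libraries. The authors deposited unnormalized counts of uniquely mapped reads per gene, made per the methods and the submitters' processing notes with Trim Galore 0.6.7, STAR 2.7.10a (mm10) and featureCounts 2.0.2. Annotation release and strand setting are not given in the sources used here. Between 81.9% and 84.3% of counts from 1 to 20 were even in every input and IgG library, as when both mates of a pair are counted. Of 55401 genes, 55141 were named through GENCODE vM21 (GRCm38).

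Counts were tested with edgeR 4.0.16 in R 4.3.3 (filterByExpr, TMM, quasi-likelihood, all 9 libraries, a mean per group). CPM use TMM-scaled library totals. Lists are described by calls in that fit. Shares of counts were compared by exact two-sided permutation over samples. On simulated counts of 21602 genes, 50 of 51 genes lowered by 2 on the log2 scale and all 51 raised by 2 were recovered. Changes were set only in genes with a mean of at least 50 counts, so recovery at lower counts was not tested. The genes called lower in the real data had a median of 39 counts a library. DESeq2 1.42.0 and limma 3.58.1 served as alternatives.

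The genes named were, among called genes with no overlap and a mean of at least 100 counts, the 8 highest and 8 lowest protein-coding genes, the 5 highest and lowest others and the 5 largest gains and losses of share; the 3 largest at 0 in a group each way; each described list's extremes and most abundant member; and genes the study names. Others were chosen after their values were seen. Members and lists were chosen with earlier results of these data known. A floor of 3 counts per library covers counting error only. The values of 3 list members are not reported here.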

Additional observations from a re-analysis of the deposited data

How the results depend on the processing

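Counts of calls stayed within 1.5 times the reported 3028 higher and 1626 lower under other scalings, filters, DESeq2 (2985 and 1600), the 6 libraries alone, halved counts and thinning. Exceptions were a test against a fold change of 2, with 1724 and 563, and limma on log2(FPKM + 1), with 1258 and 430. Leaving out each library gave 2986 to 3102 higher and 1467 to 1705 lower. In none of these alternatives was a gene called in the opposite direction. Upper quartile scaling shifted the median of all genes to -0.11 and gave 2712 and 1972. The difference in genes detected, -2361, was -1743 after thinning, which bears on how far depth limits it.

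Replicate numbers are shared by the groups, but same-numbered libraries deviated together only weakly (correlations 0.0413, 0.0330 and 0.0636), although each correlated best with its own number, a hint from the data. The samples were not treated as paired. With the replicate number as a block, 2890 genes were higher and 1563 lower, and 2874 and 1520 of these were called without it.

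Medians relative to all genes turned in sign for replacement and spermatid histones (0.056) and keratins (-1.24) without a filter on low counts, for olfactory receptors without IgG replicate 1 (0.16) and without input replicates 1, 2 and 3 (0.42, 0.11 and 0.40; range over all libraries left out 0.0056 to 0.42), and without input replicate 2 for processed pseudogenes (0.023; range -0.035 to 0.023) and protein-coding genes (-0.0093; range -0.0093 to 0.0047). The sign also changed for other lists, over all alternatives from -0.061 to 0.63 for Hox genes, -1.65 to 0.28 for immunoglobulin and Fc receptor genes, -0.0078 (without IgG replicate 2) to 0.70 for erythrocyte genes, -0.093 to 0.012 for Leydig genes, -0.11 to 0.042 for transcribed processed pseudogenes, -0.028 to 0.030 for processed transcripts and -0.16 to 0.078 for genes with no biotype in vM21. These directions are not settled. The cause was not tested.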
